A study of Mus musculus with 4 samples.

Results

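The receptors that let phagocytes recognise phosphatidylserine on dying cells, and the soluble ligands that bridge to it, were followed in CD11b+ cells sorted from mouse cortex. The 7 genes were taken by symbol from the gene list, out of 32227 genes in all. Axl, Mertk, Adgrg1, Stab1 and Timd4 encode receptors, and Gas6 and Pros1 encode bridging ligands. They were chosen by their levels in these same libraries and cell classes, as earlier results had shown them, Axl for its difference between the groups.

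The mice were wild type (WT) and had received intracortical virus (AAV) at P0 or P1, the day of birth or the day after. In the Hevin group the virus encoded Hevin, the matricellular product of Sparcl1, and in the mCherry group it encoded mCherry, a red fluorescent control. GfaABC1D, an astrocyte promoter, drove both. Cortices were taken at postnatal day 15 and dissociated with inhibitors of transcription and translation present. CD11b is an integrin subunit of microglia and of myeloid cells in general, and beads against it enriched the cells. PIPseq, an emulsion method, tagged each molecule with a unique molecular identifier (UMI). The groups had 2 libraries each, Hevin and mCherry. How many animals stood behind a library is not given in the sources used here, so p-values measure the spread between these libraries.

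Phosphatidylserine sits on the inner face of the plasma membrane and moves to the outer face when a cell dies, where phagocytes read it as a signal to engulf. Axl and Mertk are receptor tyrosine kinases of the TAM family that do not touch the lipid themselves. Gas6 and protein S (Pros1) bind it through vitamin K-dependent carboxylated ends and bridge it to the receptors, Gas6 to both and protein S to Mertk. Adgrg1 (an adhesion G protein-coupled receptor also called GPR56), Stab1 (stabilin-1, a scavenger receptor) and Timd4 (TIM-4, a tether of resident macrophages) bind the lipid directly. In the brain Mertk is well known in microglia and astrocytes, and Axl is known to be low in resting microglia and raised in reactive states.

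The start sites of Axl, Mertk and Stab1 are shown because these 3 receptors had unlike distributions over the cell classes described below. The windows run from 250 bases before to 50 after the start, in the direction of transcription, and come from RefSeq's promoters on build GRCm38.p6. They are chr7:25788684-25788983 on the minus strand for Axl, chr2:128698665-128698964 on the plus strand for Mertk and chr14:31168592-31168891 on the minus strand for Stab1. Capitals mark matches, on either strand, to the GC box GGGCGG, the PU.1 core GAGGAA or the TATA box TATAAA, which do not overlap each other here.
Axl: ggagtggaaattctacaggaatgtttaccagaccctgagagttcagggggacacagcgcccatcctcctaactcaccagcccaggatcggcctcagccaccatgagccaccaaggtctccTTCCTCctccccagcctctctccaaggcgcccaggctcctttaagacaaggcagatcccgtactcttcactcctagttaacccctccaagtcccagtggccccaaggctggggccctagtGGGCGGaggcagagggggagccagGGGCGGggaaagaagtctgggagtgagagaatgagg
Mertk: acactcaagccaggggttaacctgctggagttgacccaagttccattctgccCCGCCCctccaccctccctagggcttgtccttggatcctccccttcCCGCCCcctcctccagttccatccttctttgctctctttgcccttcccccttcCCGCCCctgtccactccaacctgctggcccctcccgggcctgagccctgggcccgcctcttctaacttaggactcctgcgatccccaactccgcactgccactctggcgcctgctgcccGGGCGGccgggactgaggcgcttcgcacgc
Stab1: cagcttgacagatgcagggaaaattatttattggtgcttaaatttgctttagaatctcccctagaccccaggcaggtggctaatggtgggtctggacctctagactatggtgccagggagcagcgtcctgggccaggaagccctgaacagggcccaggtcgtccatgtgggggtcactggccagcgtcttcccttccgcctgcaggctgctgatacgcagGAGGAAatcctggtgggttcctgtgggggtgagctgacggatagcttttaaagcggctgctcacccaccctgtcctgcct
The Axl window held 2 GC boxes and 1 PU.1 core, the Mertk window 4 GC boxes, and the Stab1 window 1 PU.1 core. None of the windows of the 7 genes, Adgrg1 with 2 windows, held the TATA box. Of all 32851 windows, 35.7% held a GC box, 28.3% a PU.1 core and 13.6% a TATA box, so these matches are common sequence and are given as description. Gas6 had 4 GC boxes and Pros1 had 5. Adgrg1 and Timd4 had no match to any of the 3.

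In the GENCODE M21 annotation of the same build, Axl lies on chromosome 7 (25757273 to 25788705, minus strand) and Mertk on chromosome 2 (128698956 to 128802894, plus strand). Adgrg1 lies on chromosome 8 (94974751 to 95014217, plus strand), as does Gas6 (13465374 to 13494490, minus strand). Stab1 is on chromosome 14 (31139013 to 31168641, minus strand), Timd4 on chromosome 11 (46810800 to 46844332, plus strand) and Pros1 on chromosome 16 (62854307 to 62929346, plus strand). An annotated gene on the opposite strand overlaps Mertk (Gm14011, antisense), Stab1 (Nt5dc2) and Gas6 (Tmem255b). Whether counting used strand is not given in the sources used here, so reads in those overlaps cannot be assigned to one gene with certainty.

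The Hevin libraries held 55629684 and 52707417 UMIs, and the mCherry libraries 67832685 and 49781430. After a filter on UMIs, genes and mitochondrial share, 19653 and 13036 cells were kept in the Hevin libraries and 17833 and 10849 in the mCherry libraries. Median UMIs per barcode were 2317 and 3490 with Hevin and 3349 and 4037 with mCherry. Of 61665 distinct barcodes, 21 occurred in 2 libraries. Hevin replicate 1 stood apart in Xist, the X-inactivation transcript of female cells, at 1.19 CPM (UMIs per 1000000 UMIs of the sum) against 1210 in Hevin replicate 2 and 539 and 1046 in the mCherry libraries. Log2 fold changes without that library are therefore given beside those that use it. Sparcl1 itself was at 86.4 and 78.4 CPM in Hevin libraries and 122.9 and 91.4 CPM in mCherry libraries. Those sums check nothing, since the virus was directed at astrocytes and the libraries hold mostly CD11b-positive cells. In cells gated as astrocytes, 64 and 21 with Hevin and 70 and 24 with mCherry, the ranges overlapped. Sparcl1 there was 5163 and 9615 CPM with Hevin and 5502 and 6815 CPM with mCherry.

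Each cell was placed in a class by the summed share of fixed marker genes. Microglia-gated cells made up 31.9% and 43.7% of kept cells in the Hevin libraries and 85.9% and 86.0% in the mCherry libraries. Border-macrophage-gated cells, which carry Lyve1, Cd163 and Mrc1 and sit at the brain's surfaces and vessels, were 4.63% and 5.47% with Hevin and 6.50% and 7.12% with mCherry. A further set had at least 200 Apoe UMIs per 10000 and passed no marker gate. This Apoe-high set is a range on one gene, not a cell type, and held 9090 and 5026 cells in the Hevin libraries (46.3% and 38.6%) and 55 and 29 in the mCherry libraries. In the Hevin libraries 364 and 181 of its cells lay within 10% above the Apoe bound, and 449 and 245 other cells within 10% below it. In mCherry libraries 7 and 1 lay just above and 105 and 68 just below, so the mCherry values of this set come from few cells. Apoe-high cells of the Hevin libraries had 954 and 984 CPM of P2ry12, a microglia marker, against 4420 and 4837 CPM in microglia-gated cells of the same libraries. Lyve1 was 15.7 and 11.1 CPM there and 1600 and 1745 CPM in border-macrophage-gated cells. Lyve1 does not stand for the whole border macrophage marker list. When cells were clustered instead, that list summed to 27.7 to 33.2 UMIs per 10000 in clusters named Apoe-high. It summed to 169 in the border macrophage cluster and to 3.1 to 5.7 in clusters named microglia. All classes were cut from the same cells, so differences of level between classes are given as description without a test.

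Over all kept cells Axl was the member with the largest fold difference between the groups. With all kept cells summed, its level was 169 and 163 CPM in Hevin libraries and 13.2 and 14.0 CPM in mCherry libraries, scaled by the trimmed mean of M-values (TMM). The ranges did not overlap, and the log2 fold change was 3.61 ± 0.08 (SE, n = 2 libraries each). Without Hevin replicate 1 it was 3.59. In that comparison 11.1% of 19119 genes passed an adjusted p of 0.05 in edgeR's quasi-likelihood test, 1309 higher and 822 lower with Hevin. Scaling by total counts shifted the median log2 fold change of all genes to -0.11, and the split was then 935 higher and 1466 lower. Because Axl and the other members were chosen with this contrast known, their values in it are description, with no p. Axl was chosen for its group difference, so its fold changes within classes are given in the same way. P-values of the other members within classes come from the same libraries and are not independent support.

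Most of that Axl lay in the Apoe-high cells. In them Axl had 249 and 309 CPM in the Hevin libraries, from 6844 and 6273 UMIs. The few such cells of the mCherry libraries had 126 and 194 CPM, from 30 and 28 UMIs. Apoe-high cells held 76.8% and 75.6% of all Axl UMIs of the Hevin libraries, while they held 49.8% and 38.6% of all UMIs. In the mCherry libraries they held 3.20% and 3.88% of Axl UMIs, and microglia-gated cells held 49.8% and 41.3%. In these mixed sums, more cells of a kind and more RNA per cell cannot be told apart.

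**Figure D1:**
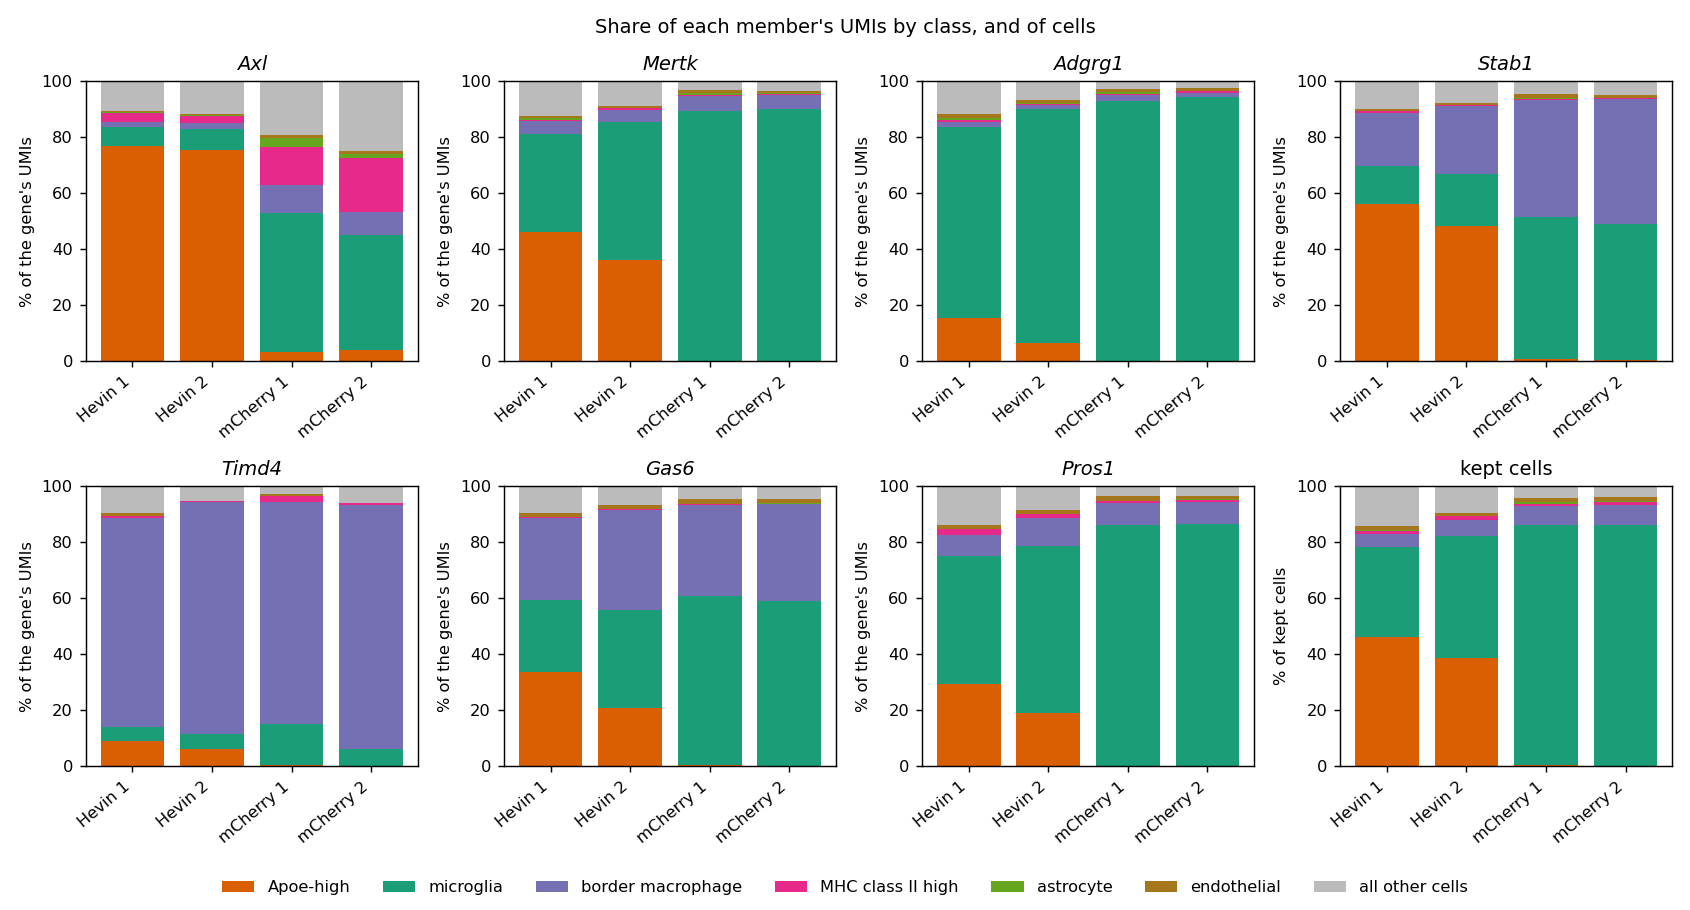
Stacked bars give the percent of each gene's UMIs found in each marker-gated class, per library, with the percent of kept cells in the last panel. Axl UMIs of the Hevin libraries lie mostly in Apoe-high cells (76.8% and 75.6%), Adgrg1 UMIs in microglia-gated cells of all 4 libraries and Timd4 UMIs in border-macrophage-gated cells.

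Microglia-gated cells had 41.6 and 30.2 CPM of Axl in Hevin libraries against 8.62 and 7.45 CPM in mCherry libraries. The groups did not overlap, and the log2 fold change was 2.20 ± 0.17 (SE, n = 2 each). Over the alternatives it lay between 1.96, without Hevin replicate 1, and 2.44. In the fit of this class 0.0818% of 17121 genes were called.

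Axl was also higher in value in cells that are not myeloid. Endothelial-gated cells had 36.2 and 19.4 CPM in Hevin libraries, from 49 and 28 UMIs, and 3.77 and 4.51 CPM in mCherry libraries, from 10 and 8 UMIs. Their log2 fold change was 2.79 ± 0.41, and 2.26 without Hevin replicate 1. Over the alternatives it lay between 1.46, with clusters in place of gates, and 3.22, with stricter gates. In the fit of this class 0.0479% of 10445 genes were called. Apoe itself was 3746 and 2260 CPM in endothelial-gated cells with Hevin and 975 and 677 CPM with mCherry. Ms4a7, a macrophage gene, was 96.1 and 52.7 CPM there with Hevin and 13.2 and 8.46 CPM with mCherry. In microglia-gated cells Ms4a7 was 106 and 67.3 CPM with Hevin and 15.0 and 10.1 CPM with mCherry. The part of these in the Axl values of both classes was not tested.

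Set against Apoe, Axl differed between the classes. With Hevin it had 6.91 and 8.15 UMIs per 1000 Apoe UMIs in Apoe-high cells, 8.51 and 8.57 in microglia-gated cells and 9.66 and 8.59 in endothelial-gated cells. With mCherry the same classes gave 3.89 and 5.29, 5.43 and 5.61, and 3.86 and 6.66. Border-macrophage-gated cells were below these in every library, at 3.57 and 3.32 with Hevin and 1.26 and 1.06 with mCherry. MHC class II high cells were above them in every library, at 36.5 and 39.8 with Hevin and 57.5 and 210 with mCherry. In each Hevin library the counting intervals of Axl in microglia-gated cells (38.3 to 45.0 and 27.8 to 32.6 CPM) overlapped those in endothelial-gated cells (26.8 to 47.9 and 12.9 to 28.1 CPM). After thinning every cell to 1000 UMIs, 4.20% and 3.09% of microglia-gated cells held an Axl UMI with Hevin, against 0.764% and 0.601% with mCherry. In endothelial-gated cells the thinned shares were 3.14% and 2.17% with Hevin and 0 of 274 and 0 of 168 cells with mCherry, which allows up to 1.09% and 1.79%. Unthinned, the shares in microglia-gated cells were 9.10% and 9.46% with Hevin at median depths of 2077 and 3311 UMIs, and 2.69% and 2.67% with mCherry at 3272 and 3954 UMIs. Endothelial-gated cells, at 3744 and 5824 UMIs, gave 14.8% and 15.9% with Hevin. In both Hevin libraries the CPM and the thinned share of the endothelial class were below those of the microglia class, and overlap of the intervals does not show that the levels were equal. Apoe-high cells of the Hevin libraries were at 21.5% and 25.5% after thinning.

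**Figure D2:**
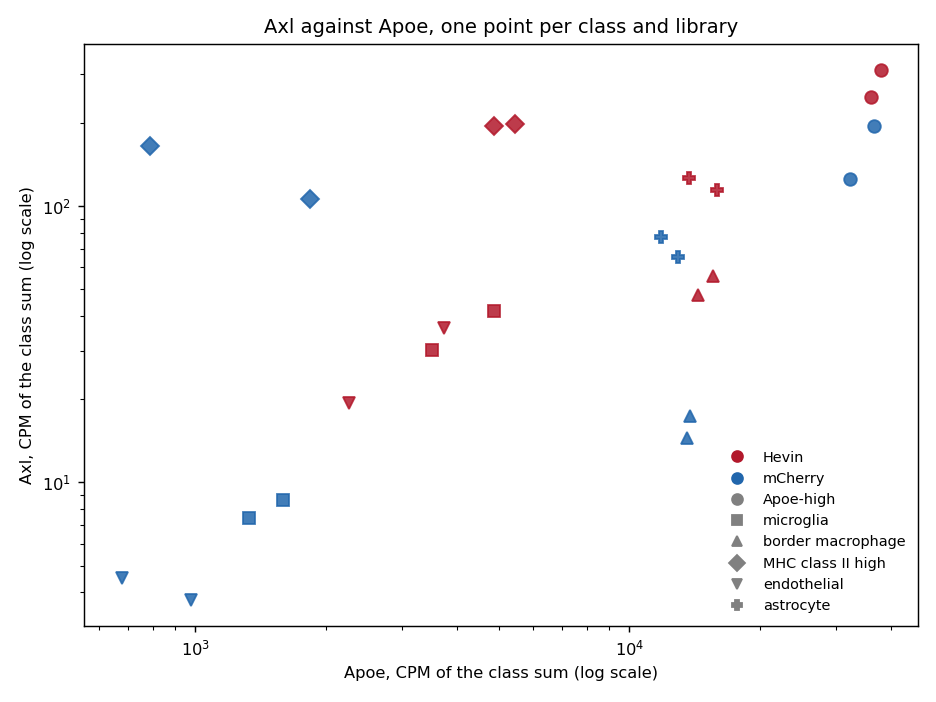
Each point is the sum of one class in one library, with Apoe CPM on the x axis and Axl CPM on the y axis, both on log scales. Hevin microglia and endothelial points lie between 19.4 and 41.6 CPM of Axl, and in both groups the MHC class II high points stand higher, and the border macrophage points lower, against Apoe than those of the other classes.

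One more myeloid class carried Axl in every library. Cells gated on MHC class II genes had 199 and 194 CPM with Hevin and 106 and 165 CPM with mCherry. Border-macrophage-gated cells had 55.7 and 47.7 CPM of Axl with Hevin against 17.4 and 14.5 CPM with mCherry. That log2 fold change was 1.72 ± 0.16, and 1.62 without Hevin replicate 1. The difference of the group means was 35.7 CPM in border-macrophage-gated cells, 27.8 CPM in microglia-gated cells and 23.7 CPM in endothelial-gated cells. It was larger in Apoe-high cells (119.2 CPM), MHC class II high cells (60.98 CPM) and astrocyte-gated cells (48.7 CPM). As an interaction, the Hevin effect on Axl in border-macrophage-gated minus microglia-gated cells was -0.45 ± 0.17, and -0.35 without Hevin replicate 1. In that fit 0.192% of 15119 genes were called, and Axl was not among them. The value is description with no p, since Axl was chosen for its group difference. Astrocyte-gated cells had 126 and 114 CPM with Hevin, from 27 and 17 UMIs, and 77.1 and 65.4 CPM with mCherry, from 30 and 11 UMIs. Among classes with a sum in every library, the order by mean was Apoe-high (219 CPM), MHC class II high (166), astrocyte (95.6) and border macrophage (33.8). With the groups pooled, the first 3 overlapped with their neighbours in range, and astrocyte-gated cells did not overlap with border macrophages. Within each library these 3 classes kept that order, with few UMIs in the mCherry Apoe-high sums and the astrocyte sums. Mural sums of at least 20 cells existed in 1 library per group, with 273 CPM of Axl in Hevin replicate 1 and 130 CPM in mCherry replicate 1. They came from 18 and 22 UMIs and were above the Apoe-high sums of the same libraries. Their mean of 202 CPM lay between those of Apoe-high and MHC class II high cells.

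**Figure D3:**
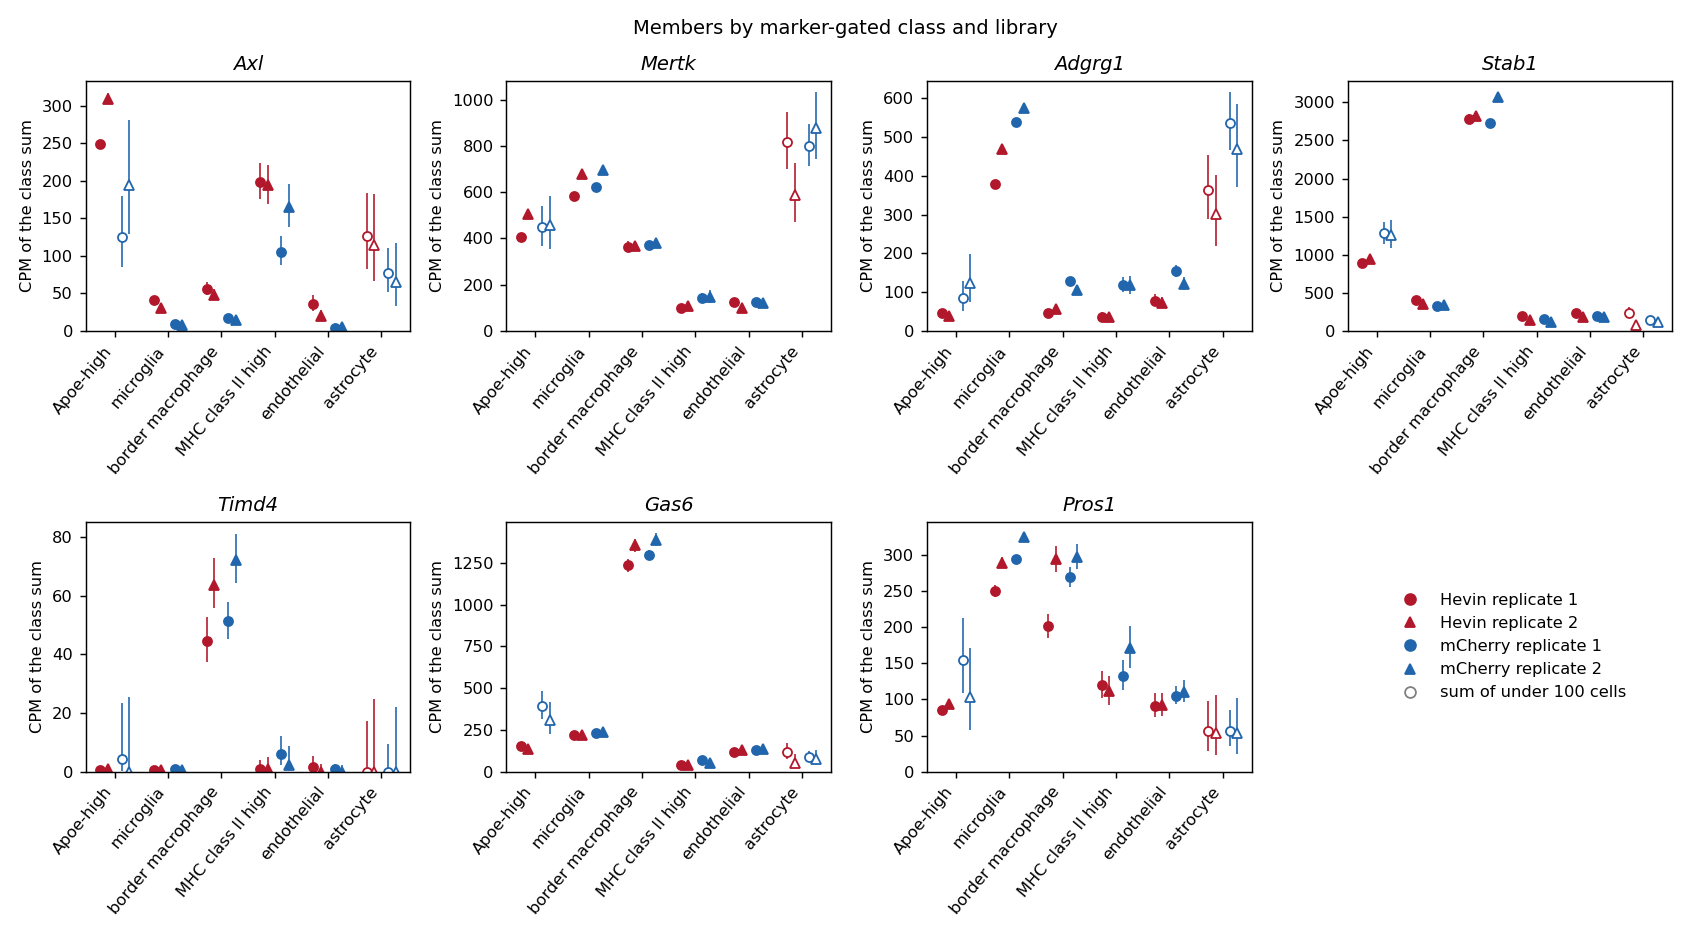
Points give the CPM of each member in 6 marker-gated classes, Hevin in red and mCherry in blue, with 95% Poisson intervals for counting error only and open symbols for sums of under 100 cells. Axl is highest in Apoe-high and MHC class II high cells, Stab1, Gas6 and Timd4 in border macrophages, and the Mertk points of the groups overlap within the microglia and Apoe-high classes.

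Mertk, the other TAM receptor, was spread over microglia-gated, Apoe-high, border-macrophage-gated and astrocyte-gated cells. It was lower in MHC class II high cells, at means of 103 CPM with Hevin and 144 CPM with mCherry. Their range overlapped that of endothelial-gated cells. Microglia-gated cells had 583 and 678 CPM in Hevin libraries and 622 and 694 CPM in mCherry libraries, and the groups overlapped. The log2 fold change there was -0.01 ± 0.11 (adjusted p = 1.00), and 0.093 without Hevin replicate 1. Border-macrophage-gated cells had 365 and 367 CPM with Hevin and 371 and 382 CPM with mCherry, a TMM-scaled log2 change of 0.0005 ± 0.090 (adjusted p = 1.00), and 0.0082 without Hevin replicate 1. Apoe-high cells had 407 and 508 CPM with Hevin and 448 and 458 CPM with mCherry. Astrocyte-gated cells had 817 and 590 CPM with Hevin and 802 and 880 CPM with mCherry, and their range overlapped that of microglia-gated cells. Below these stood Apoe-high cells (mean 455 CPM) and border macrophages (371 CPM), with no overlap between neighbours. Endothelial-gated cells held 124 and 98.5 CPM with Hevin and 127 and 121 CPM with mCherry. After thinning, 33.8% and 39.6% of Apoe-high cells and 44.0% and 48.2% of microglia-gated cells of the Hevin libraries had a Mertk UMI, against 12.5% and 13.8% of endothelial-gated cells. Over all kept cells Mertk was at 462 and 558 CPM with Hevin and 534 and 602 CPM with mCherry.

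Adgrg1 followed the microglia gate. Microglia-gated cells had 380 and 469 CPM in Hevin libraries and 539 and 576 CPM in mCherry libraries. They held 68.4% and 83.2% of Adgrg1 UMIs with Hevin and 92.7% and 94.1% with mCherry. Within that class the log2 fold change was -0.35 ± 0.12 and missed the threshold (adjusted p = 0.724), and without Hevin replicate 1 it was -0.20. The groups did not overlap. With 2 libraries each that alone shows little, as Gas6, at a log2 fold change of -0.04, did not overlap there either. The Adgrg1 change was called with no filter on low counts (adjusted p = 0.0173) and with the replicate block (adjusted p = 0.00921). Both settings also raised the number of genes called in this class. Over the alternatives the change lay between -0.50 and -0.20, and it was not called under all of them. Apoe-high cells of the Hevin libraries had 45.5 and 38.4 CPM, or 4.50% and 3.66% of cells with a UMI after thinning. Endothelial-gated cells of those libraries had 78.3 and 72.1 CPM, or 7.06% and 8.70% of cells, above the Apoe-high cells in both libraries. Astrocyte-gated cells, a class known to express the gene, had 364 and 302 CPM with Hevin and 537 and 470 CPM with mCherry, and their range overlapped that of microglia-gated cells.

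In border-macrophage-gated cells Adgrg1 was lower with Hevin, at 45.2 and 55.3 CPM against 129 and 105 CPM with mCherry. The log2 fold change was -1.18 ± 0.14 (adjusted p = 0.00751, with 0.35% of 12017 genes called) and -1.04 without Hevin replicate 1. Endothelial-gated cells gave 78.3 and 72.1 CPM with Hevin and 154 and 122 CPM with mCherry, which was above the border macrophages in each library, and their log2 fold change was -0.84 ± 0.17 (adjusted p = 0.155). Over the alternatives the endothelial log2 fold change lay between -0.997 and -0.622, and it was called in some settings and not in others. The group means differed by -67.1 CPM in border macrophages, -62.7 CPM in endothelial cells and -81.0 CPM in MHC class II high cells. They differed by -62.3 CPM in Apoe-high cells, and by more in microglia-gated (-133.1 CPM) and astrocyte-gated cells (-170.8 CPM). The interaction given below, border macrophages minus microglia, is on the log2 scale. All 7 microglia markers had UMIs in endothelial-gated cells, and their summed level there was 844 and 577 CPM with Hevin and 1831 and 1405 CPM with mCherry. In border-macrophage-gated cells that sum was 1576 and 1368 CPM with Hevin and 2642 and 2201 CPM with mCherry. The part of these in the Adgrg1 result was not tested. The interaction between the classes was -0.83 ± 0.15 (adjusted p = 0.0539), and over the alternatives its adjusted p lay between 1.2e-08 and 0.190. Without mCherry replicate 2 it was -1.04 (adjusted p = 0.000115), and without Hevin replicate 1 it was -0.86 (adjusted p = 0.0942).

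Stab1 was a gene of border macrophages and, at a lower level, of Apoe-high cells. Border-macrophage-gated cells had 2787 and 2815 CPM in Hevin libraries and 2726 and 3071 CPM in mCherry libraries, a log2 fold change of -0.01 ± 0.10 (adjusted p = 0.998), and 0.0044 without Hevin replicate 1. Apoe-high cells had 889 and 948 CPM with Hevin and 1281 and 1262 CPM with mCherry. Microglia-gated cells had 407 and 354 CPM with Hevin and 323 and 334 CPM with mCherry. The log2 fold change of 0.26 ± 0.09 in that class missed the threshold (adjusted p = 0.759), and without Hevin replicate 1 it was 0.16. The groups did not overlap there, which with 2 libraries each shows little. The order of classes was border macrophage (mean 2850 CPM), Apoe-high (1095), microglia (354) and endothelial (196), and no neighbours overlapped. Apoe-high cells held 56.0% and 48.4% of Stab1 UMIs in the Hevin libraries and 0.886% and 0.659% in the mCherry libraries. Over all kept cells Stab1 was at 830 and 781 CPM with Hevin and 488 and 538 CPM with mCherry, a log2 difference of 0.65 ± 0.09, and 0.61 without Hevin replicate 1.

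Timd4 lay mostly in border macrophages. They had 44.5 and 63.7 CPM in Hevin libraries, from 132 and 219 UMIs, and 51.2 and 72.3 CPM in mCherry libraries, from 270 and 290 UMIs. These ranges overlapped, and the log2 fold change was -0.12 ± 0.20 (adjusted p = 0.957), and 0.11 without Hevin replicate 1. Border-macrophage-gated cells held 74.6% and 83.0% of all Timd4 UMIs with Hevin and 79.4% and 87.1% with mCherry. Apoe-high cells of the Hevin libraries had 0.582 and 0.789 CPM, from 16 UMIs in each, and microglia-gated cells of the same libraries 0.613 and 0.681 CPM. At these depths a difference between those classes was not detectable. Timd4 was not tested in endothelial-gated cells, where its counts were too low.

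**Figure D4:**
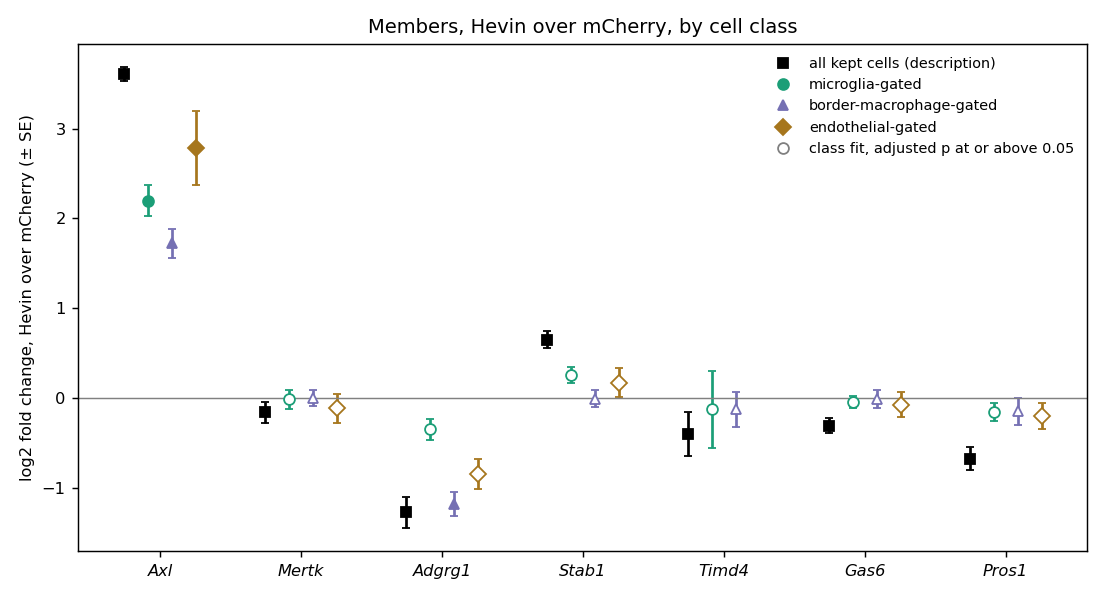
Log2 fold changes of the 7 members, Hevin over mCherry, with SE, in all kept cells (black) and in 3 gated classes, open where the adjusted p was at or above 0.05. Black points and all Axl points are description and always filled. Axl is above 0 in all 4 and Adgrg1 below 0, while Mertk, Stab1, Timd4, Gas6 and Pros1 lie no further than 0.26 from 0 in the gated classes.

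Of the bridging ligands, Gas6 was highest in border macrophages. They had 1236 and 1355 CPM in Hevin libraries and 1299 and 1390 CPM in mCherry libraries, with overlapping ranges and a log2 fold change of -0.01 ± 0.10 (adjusted p = 0.995), and 0.058 without Hevin replicate 1. Microglia-gated cells had 220 and 220 CPM with Hevin and 234 and 236 CPM with mCherry, a log2 fold change of -0.04 ± 0.07 (adjusted p = 1.00), and -0.04 without Hevin replicate 1. Apoe-high cells had 153 and 135 CPM with Hevin, from 4219 and 2731 UMIs, and 393 and 312 CPM with mCherry, from 94 and 45 UMIs. In the Hevin libraries the Apoe-high level was close to the 117 and 128 CPM of endothelial-gated cells. After thinning, 14.1% and 12.02% of Apoe-high cells had a Gas6 UMI with Hevin, against 10.2% and 13.8% of endothelial-gated cells. Over all kept cells Gas6 was at 239 and 256 CPM with Hevin and 297 and 314 CPM with mCherry.

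Pros1, the gene of protein S, was shared by microglia and border macrophages. Microglia-gated cells had 250 and 290 CPM in Hevin libraries and 294 and 326 CPM in mCherry libraries, a log2 fold change of -0.15 ± 0.10 (adjusted p = 1.00), and -0.048 without Hevin replicate 1. Border-macrophage-gated cells had 202 and 295 CPM with Hevin and 270 and 298 CPM with mCherry, a log2 fold change of -0.15 ± 0.15 (adjusted p = 0.928). Both classes overlapped between the groups and with each other. Leaving out Hevin replicate 2 gave -0.44 in border macrophages (adjusted p = 0.0262), and leaving out Hevin replicate 1 gave 0.10. Apoe-high cells had 85.3 and 94.2 CPM with Hevin and 155 and 104 CPM with mCherry, near the 90.9 and 92.2 CPM of endothelial-gated cells with Hevin. Over all kept cells Pros1 was at 152 and 197 CPM with Hevin and 262 and 294 CPM with mCherry.

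Apoe-high cells of the Hevin libraries therefore paired a high Axl with a Mertk level between those of border macrophages and microglia. Within each library Axl was 5.99 and 10.3 times higher in Apoe-high than in microglia-gated cells with Hevin and 14.6 and 26.1 times higher with mCherry. The same ratio for Mertk was 0.698 and 0.748 with Hevin and 0.720 and 0.659 with mCherry. For Adgrg1 it was 0.120 and 0.0818 with Hevin and 0.155 and 0.217 with mCherry. For Stab1 it was 2.19 and 2.68 with Hevin and 3.96 and 3.78 with mCherry, and for Pros1 0.341 and 0.325 with Hevin and 0.526 and 0.319 with mCherry. These 5 genes kept 1 direction in all 4 libraries, Gas6 being described with the results to look at again and Timd4 resting on too few counts. The mCherry ratios rest on 55 and 29 Apoe-high cells. Those cells held 30 and 28 UMIs of Axl, 20 and 18 of Adgrg1 and 37 and 15 of Pros1, and more of Mertk and Stab1.

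The genes most like each member were found by Pearson's r of log2(CPM + 1) over 27 sums of a class in a library, among 12052 genes. The sums share libraries, depth and cells, so these values are description. Axl was most like Cyp4f18 (r = 0.773), Cd44 (0.750) and Gsn (0.733), and then Smim3 and Irs2. Mertk was most like Mgat5 (r = 0.936), Rnf180, Gm21860, Slc46a1 and Abcd2. Adgrg1 was most like Thrsp (r = 0.892), Sema4g, Ldhb, Sall3 and Serpine2. Stab1 was most like Maf (r = 0.950), Cela1, Blvrb, Nrp1 and Adam33, and Gas6 like Sbf2 (r = 0.933), Stard8, Tln2, Ncoa4 and Igfbp4. Timd4 was most like Nrap (r = 0.944), Slc10a6, Lbx1, F13a1 and Ccl8, and Pros1 like Picalm (r = 0.903), Mgat1, Wasf2 and Tacc1 among others. Among the members themselves Gas6 and Stab1 were the closest (r = 0.875), ranking 6 in the list of Gas6. Axl and Mertk had an r of -0.02.

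The wider pathway was read from 62 further genes in 7 lists. The lists were chosen with earlier results of these data known, so the p-values of their genes are not independent support. Over all kept cells 6 were higher with Hevin, beside 6.85% of all genes, 1 was lower, beside 4.3%, and 55 were not called. The median log2 fold change of the 62 was -0.02, beside 0.002 over all genes tested. In microglia-gated, border-macrophage-gated and endothelial-gated cells none of the 59, 50 and 44 genes tested was called by edgeR or by DESeq2. At an unadjusted p below 0.05 there were 3, 2 and 5 genes in those classes.

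Among the 14 other phosphatidylserine receptors 1 was called. Cd300lf, an inhibitory receptor of myeloid cells, had 11.0 and 12.03 CPM with Hevin and 5.56 and 6.54 CPM with mCherry (log2 fold change 0.93 ± 0.13, adjusted p = 0.00671), and the change was 0.997 without Hevin replicate 1. It fell outside the rule for named genes, which asked for a mean of 10 CPM, and is named because it was the only one. Of the milk-fat-globule bridge and its integrins, Itgb3, the integrin chain that pairs with Itgav, had 10.7 and 12.8 CPM with Hevin and 25.3 and 27.2 CPM with mCherry. It fell by 1.16 ± 0.11 on the log2 scale (adjusted p = 0.00174), while the other 4 of that list were not called.

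Of 21 genes of engulfment and digestion 1 was called. Abca1, which exports cholesterol from cells, was at 428 and 404 CPM with Hevin and 219 and 249 CPM with mCherry (0.83 ± 0.10, adjusted p = 0.00307). In the list of receptor shedding and feedback 3 of 9 were higher, among them Ifnar1 and Ifnar2. Ifnar1 and Ifnar2, the chains of the type I interferon receptor that TAM receptors are known to engage for their feedback, had log2 fold changes of 0.90 ± 0.07 (adjusted p = 0.000518) and 0.56 ± 0.08 (adjusted p = 0.00641). Of 4 genes that check engulfment, Siglece, an inhibitory sialic acid receptor, was at 101 and 91.5 CPM with Hevin and 63.7 and 61.3 CPM with mCherry (0.62 ± 0.08, adjusted p = 0.00362). No gene of ligand maturation (3) or of phosphatidylserine exposure (6) was called. These sums mix classes whose shares differ between the groups, and the part of that in the 7 changes was not tested. The 5 named here under the rule (Itgb3, Abca1, Ifnar1, Ifnar2 and Siglece) kept their direction without Hevin replicate 1, with log2 fold changes from 0.50 to 0.90 for the higher genes and -1.03 for Itgb3.

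**Figure D5:**
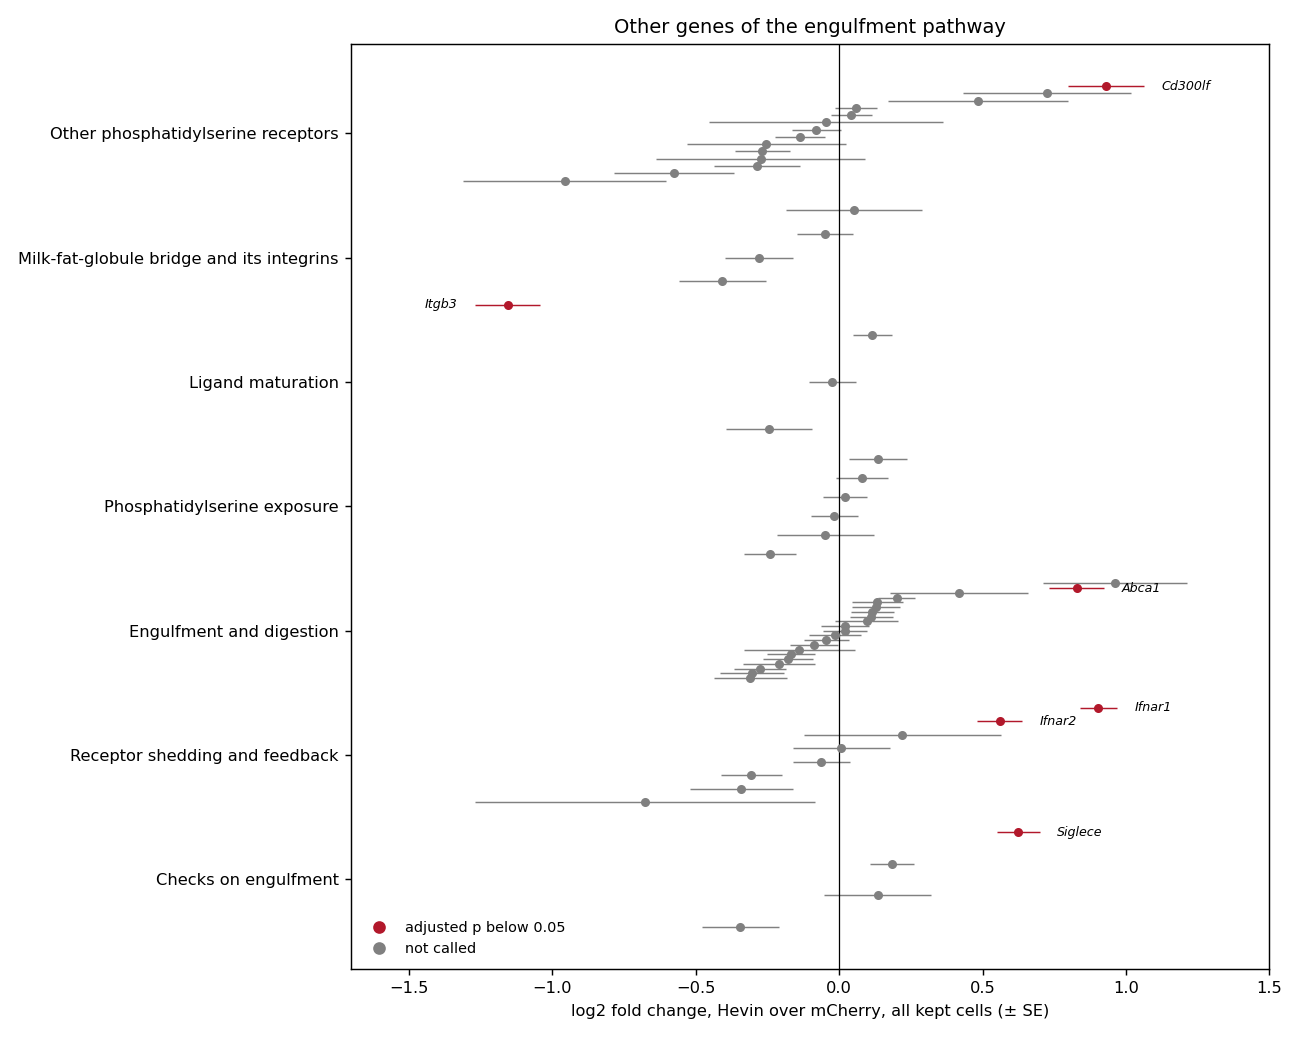
Log2 fold changes over all kept cells, Hevin over mCherry, with SE, for 61 of the 62 pathway genes in 7 lists. The 6 genes in red passed an adjusted p of 0.05, 5 above 0 and Itgb3 below, and the other 55 did not.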

How the data were processed

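Single-cell RNA was measured in 2 Hevin and 2 mCherry libraries. The values the authors deposited are UMI counts, not normalized, for each gene in each barcode. The submitters' processing notes name mm10 as the build; aligner, counter, annotation and cell calling are not given in these sources. The lowest total per deposited barcode was 965 and 2178 UMIs with Hevin and 2038 and 2993 with mCherry, so admission depth was not common to the groups.

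A kept cell had 500 or more UMIs, 300 or more genes and no more than 10% mitochondrial UMIs, which removed 202 and 41 barcodes with Hevin and 44 and 28 with mCherry. A class needed at least 3 distinct markers and at least 60 marker UMIs per 10000, or 100 for border macrophages and MHC class II high cells. Cells passing more than 1 gate, or the microglia gate with at least 200 Apoe UMIs per 10000, were set aside as possible doublets; no doublet caller was run. Plain CPM are shares of a class sum, with exact 95% Poisson intervals for counting error only; UMIs per library set that precision. Sums of at least 20 cells entered comparisons.

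Sums per library were tested with edgeR 4.0.16 (quasi-likelihood test, TMM, filterByExpr, Benjamini-Hochberg over all genes tested, threshold 0.05) in R 4.3.3, after the script had been tested on simulated data. CPM and log2 fold changes of fits are TMM-scaled. The class interaction had the library as a block. Alternatives were DESeq2 1.42.0 or its size factors, no count filter, each library left out, a replicate block, at least 3000 UMIs per cell, the top 5% of cells by UMIs removed, gates 1.5 times stricter, Leiden clusters (leidenalg 0.10.2) and, chosen after seeing the data, scaling by total counts.

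The members, gene lists and markers were chosen with earlier results of these data known. The named genes were the 7 members, the 5 genes most like each among those reaching 20 CPM in a sum, and pathway genes that passed the test, averaged 10 CPM or more and had non-overlapping groups, at most 5 each way; 2 genes that this rule names are not reported here. Same-group libraries differed beyond sampling noise (chi-square per gene 27.9 with Hevin and 22.5 with mCherry). Protein sequences were not used here.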

Additional observations from a re-analysis of the deposited data

Results flagged for a closer look

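Gas6 stood out because its direction between 2 classes was opposite in the 2 groups. In the Hevin libraries Gas6 was lower in Apoe-high than in microglia-gated cells, by a log2 difference of -0.52 and -0.71 (mean -0.62). In the mCherry libraries it was higher in Apoe-high cells, by 0.75 and 0.40 (mean 0.58). The difference between the groups was not tested. The mCherry values rest on 55 and 29 cells, with 94 and 45 Gas6 UMIs, and the Hevin values on 9090 and 5026 cells. Of those mCherry cells 7 and 1 lay within 10% above the Apoe bound. The border macrophage markers, 6 of 6 with UMIs in every library, summed to 3132 and 3092 CPM in Apoe-high cells with Hevin and 3494 and 3391 CPM with mCherry. Lyve1 was at 15.7 and 11.1 CPM in them with Hevin and at 33.5 and 20.8 CPM, from 8 and 3 UMIs, with mCherry. The part of these in the result was not tested.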

How the results depend on the processing

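Fits of gated classes with 2 libraries a group called few genes, and the number called moved with most settings. Microglia-gated cells gave 14 calls, against 144 with the DESeq2 test, 323 with no filter on low counts, 4 with stricter gates and 0 with clusters in place of gates (edgeR, 1096 genes at an unadjusted p below 0.05). Border-macrophage-gated cells gave 42, against 238 with no filter and 96 with clusters. Endothelial-gated cells gave 5, against 18 with DESeq2, 186 with no filter, 19 with at least 3000 UMIs per cell, 8 without the top 5% of cells, 12 with stricter gates and 25 with clusters. The difference between border-macrophage-gated and microglia-gated cells gave 29, against 155 with no filter and 48 with stricter gates. All kept cells gave 2131, and 1323 with at least 3000 UMIs per cell. With each library left out the counts ran from 33 to 92 in microglia-gated cells, 55 to 302 in border-macrophage-gated cells, 0 to 354 in endothelial-gated cells and 48 to 101 for the difference between classes; the 0 came without mCherry replicate 1 (edgeR, 336 genes at an unadjusted p below 0.05) and the 302 and 354 without Hevin replicate 1. The cause was not tested.

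The replicate number of the labels as a block gave 4533 calls in all kept cells, 600 in microglia-gated, 219 in border-macrophage-gated and 232 in endothelial-gated cells. The labels do not say that the numbers pair the libraries, and same-numbered libraries deviated together with an r of 0.36 over all kept cells and 0.46 in microglia-gated cells.

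Of 361 log2 fold changes of members and named pathway genes under an alternative, 313 kept their direction and side of the threshold, or moved by less than the spread between libraries. Those that changed sign were near 0 in the report. Timd4 in microglia-gated cells was 0.18 with at least 3000 UMIs per cell. In border-macrophage-gated cells Mertk was -0.0082 with no filter, -0.026 with at least 3000 UMIs, -0.0015 without the top 5% of cells, -0.012 with stricter gates and -0.018 with clusters. Stab1 there was 0.0071 without the top 5%, 0.0033 with stricter gates and 0.047 with clusters, and Gas6 was 0.0067 with at least 3000 UMIs, 0.021 with stricter gates and 0.019 with clusters. With each library left out, Mertk ran from -0.12 to 0.093 and Timd4 from -0.45 to 0.35 in microglia-gated cells. In border-macrophage-gated cells Mertk ran from -0.031 to 0.028, Stab1 from -0.10 to 0.089, Timd4 from -0.41 to 0.14, Gas6 from -0.075 to 0.058 and Pros1 from -0.44 to 0.10. Of 140 class levels, 112 moved by less than 1 SD of the libraries. Depth limits Timd4 outside border macrophages and every value of Apoe-high cells in the mCherry libraries.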
